A study of Mus musculus with 11 samples.

Results

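The 10 genes described here, Prox1, Dsp, C1ql2, Calb1, Lct, Tdo2, Trpc6, Pdzd2, Glis3 and Il16, are markers of dentate granule cells. Their levels are used here as a stand-in for the share of granule cells in a dissected hippocampus, which was not measured. The genes were found by matching the Ensembl identifiers of the count tables to gene symbols of the GENCODE annotation of GRCm38. All 10 were among the 38293 genes of the tables, of which 36429 (95.1%) had a symbol.

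Granule cells are the principal excitatory neurons of the dentate gyrus, the entry station of the hippocampal circuit. They receive input from the entorhinal cortex and send their axons, the mossy fibres, to mossy cells of the hilus and to pyramidal cells of area CA3. New granule cells are added in adult mice, and the homeodomain factor Prox1 is needed to give and to keep granule cell identity. In RNA of a whole hippocampus, fewer granule cells and less of a transcript per cell cannot be told apart.

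RNA-seq was carried out on whole hippocampi of wildtype F1 mice at 14 weeks of age, bred from 129S6/SvEv dams and C57BL/6J males. Dams of the CD group were kept on an AIN-93G control diet with 2.3 mg folic acid per kg, and dams of the FD group received 40 mg folic acid per kg diet only until mating, so that from mating on all dams and offspring had the control diet. There were 6 CD mice, of which 3 were male, and 5 FD mice, of which 2 were male, numbered here as in the sample labels. The mice came from several dams, and the litter of each sequenced mouse is not given in the sources used here, so mice counted as replicates may be littermates. The comparison asks whether the diet of the dam before conception was followed by a different level of these transcripts in the adult hippocampus of its offspring.

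Total counts on genes ranged from 11737554 to 44447006 per mouse, which put between 95 and 370 counts on the member with the fewest, Tdo2, and between 2034 and 6936 on the member with the most, Calb1. Xist was at 7426 to 30462 counts in the 6 females and at 6 to 27 in the 5 males, as labelled. The share of reads that fell outside annotated genes ran from 7.01% to 11.03%, and 4 of the 5 libraries with the lowest shares were from females. Markers of the neighbouring fields were also present in every mouse, with a summed level of 4 CA1 markers (Wfs1, Fibcd1, Mpped1 and Pou3f1) between 520.9 and 686.9 CPM (counts scaled to library size with TMM factors) and of the 5 CA3 markers (Grik4, Iyd, Bok, Homer3 and Cpne4) between 303.2 and 372.3 CPM.

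Scaled by exon length, the members spanned a wide range of levels. Calb1, which encodes the calcium buffer calbindin and is also expressed by CA1 pyramidal cells and interneurons, was highest with 34.4 ± 3.37 RPKM (CPM divided by exon length in kilobases, SD, n = 11). Prox1 followed with 17.3 ± 1.49 RPKM and C1ql2 with 16.4 ± 2.03 RPKM. The pair were close neighbours, as Prox1 was the higher of the pair in 7 of 11 mice. Lct (7.87 ± 0.663 RPKM) exceeded Dsp (7.07 ± 0.966 RPKM) in 10 of 11 mice, and Il16 (4.88 ± 0.337 RPKM) exceeded Trpc6 (4.61 ± 0.360 RPKM) in 8 of 11. Pdzd2 (2.97 ± 0.443 RPKM), Tdo2 (2.20 ± 0.302 RPKM) and Glis3 (1.60 ± 0.229 RPKM) came last, and each exceeded the next in all 11 mice although the ranges of adjacent genes overlapped. Of the 20256 genes with a length, 93.9% were below Calb1, 86.3% were below Prox1 and 43.6% were below Glis3 on this scale.

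**Figure D1:**
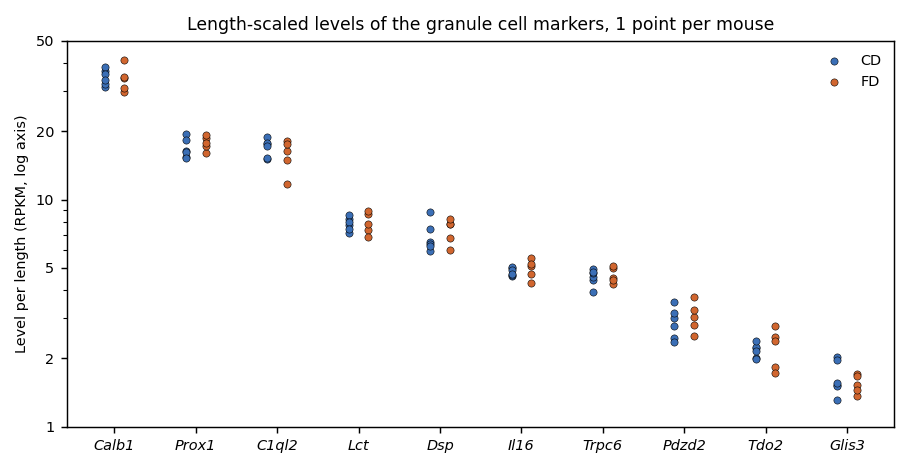
Level per exon length (RPKM, logarithmic axis) of the 10 granule cell markers, with 1 point per mouse, CD in blue and FD in orange. Calb1 lies between 29.8 and 40.9 RPKM in every mouse, apart from Prox1 (15.3 to 19.4 RPKM), and CD and FD points overlap for every gene.

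The members lie on several chromosomes and were all counted as protein-coding genes. Prox1 spans chr1:190118035-190170714 on the minus strand with 6 merged exons, and 133 of its exon bases are shared with the antisense gene Prox1os, which had 1284 counts in all mice together against 36816 for Prox1. Il16 spans chr7:83642825-83745726 on the minus strand, and 1368 of its exon bases are shared with opposite-strand exons of Stard5 and 2310044K18Rik (4386 counts together, against 9841 for Il16). Dsp (chr13:38151294-38198577, plus strand) shares 499 bases with Gm10129, which had 0 counts. Whether counting used strand is not given in the sources used here, so reads from the shared bases of Prox1 and Il16 cannot be assigned with certainty.

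RefSeq promoter windows on GRCm38.p6, which run from 250 bases before a transcript start to 50 bases after it, were found for 9 of the 10 members, all except Calb1. The windows of Prox1, Dsp and C1ql2 are shown because, over the 11 mice, Dsp had the highest and C1ql2 the lowest correlation with Prox1 among the members (given with the other correlations). Capitals mark matches to the E-box CANNTG, the motif bound by basic helix-loop-helix factors such as the NeuroD factors of granule cells. They are written in the direction of transcription.
Prox1, chr1:190170778-190171077, minus strand: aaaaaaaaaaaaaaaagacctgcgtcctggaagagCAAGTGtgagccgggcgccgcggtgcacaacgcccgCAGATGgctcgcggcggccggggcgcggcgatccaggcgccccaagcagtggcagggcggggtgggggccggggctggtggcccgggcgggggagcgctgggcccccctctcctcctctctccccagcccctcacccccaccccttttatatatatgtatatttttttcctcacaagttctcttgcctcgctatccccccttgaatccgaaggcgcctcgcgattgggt
Dsp, chr13:38151044-38151343, plus strand: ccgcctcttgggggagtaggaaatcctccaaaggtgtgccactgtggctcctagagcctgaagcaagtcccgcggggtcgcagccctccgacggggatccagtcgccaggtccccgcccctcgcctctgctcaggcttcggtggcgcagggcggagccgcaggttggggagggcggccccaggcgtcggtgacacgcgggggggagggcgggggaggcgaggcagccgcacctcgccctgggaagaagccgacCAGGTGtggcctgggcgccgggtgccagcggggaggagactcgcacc
C1ql2, chr1:120340332-120340631, plus strand: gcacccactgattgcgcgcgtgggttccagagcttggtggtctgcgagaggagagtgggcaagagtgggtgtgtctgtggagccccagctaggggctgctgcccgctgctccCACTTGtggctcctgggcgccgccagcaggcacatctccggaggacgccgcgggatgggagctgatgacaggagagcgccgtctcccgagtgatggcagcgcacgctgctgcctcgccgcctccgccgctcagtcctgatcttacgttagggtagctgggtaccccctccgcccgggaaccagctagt
The Prox1 window, whose start lies 113 bases from the GENCODE gene start, held 2 E-boxes, and the windows of Dsp and C1ql2 held 1 each. Of the 9 windows, 6 held at least 1 E-box, against 72.3% of all 32851 windows in the table. The Il16 window, which held 6 E-boxes, has its start 10187 bases from the GENCODE gene start. For the Tdo2 window this distance is 474 bases. The GC box GGGCGG and the TATA box TATAAA were searched on both strands. The GC box was in 5 of the 9 windows and in 35.7% of all windows. The TATA box was in 2 of 9 (Prox1 and Tdo2) and in 13.6% of all. The Prox1 match is on the opposite strand, as TTTATA in the sequence shown. GC content was 64.3% for Prox1, 73.0% for Dsp and 67.3% for C1ql2, against a median of 52.7%, while the windows of Lct (44.7%) and Tdo2 (47.7%) were below it. These matches are a description of the windows only.

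Between FD and CD F1 mice, none of the 10 markers differed beyond the spread between mice. By edgeR's quasi-likelihood test over 20589 genes, 0 of 10 members passed an adjusted p of 0.1, and 14 genes (0.068% of those tested) did. With CD and FD mice of the same sex and number as a replicate block, 23 genes and 0 members were called. DESeq2 called 0 members and 18 genes, and in the edgeR test 0 members had an unadjusted p under 0.05, against 2.59% of all genes. The log2 fold changes were between -0.10 and 0.08, with 7 members higher and 3 lower in FD and a median of 0.04. Over all genes tested the median was -0.004, and 48.2% had a higher value in FD. Exact two-sided permutation tests of the single members gave p between 0.29 and 0.903, where 462 assignments allow no p under 0.002165. Every adjusted p of a member between the diets was 0.99996 in the edgeR test, so only sizes and intervals are given for single genes.

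**Figure D2:**
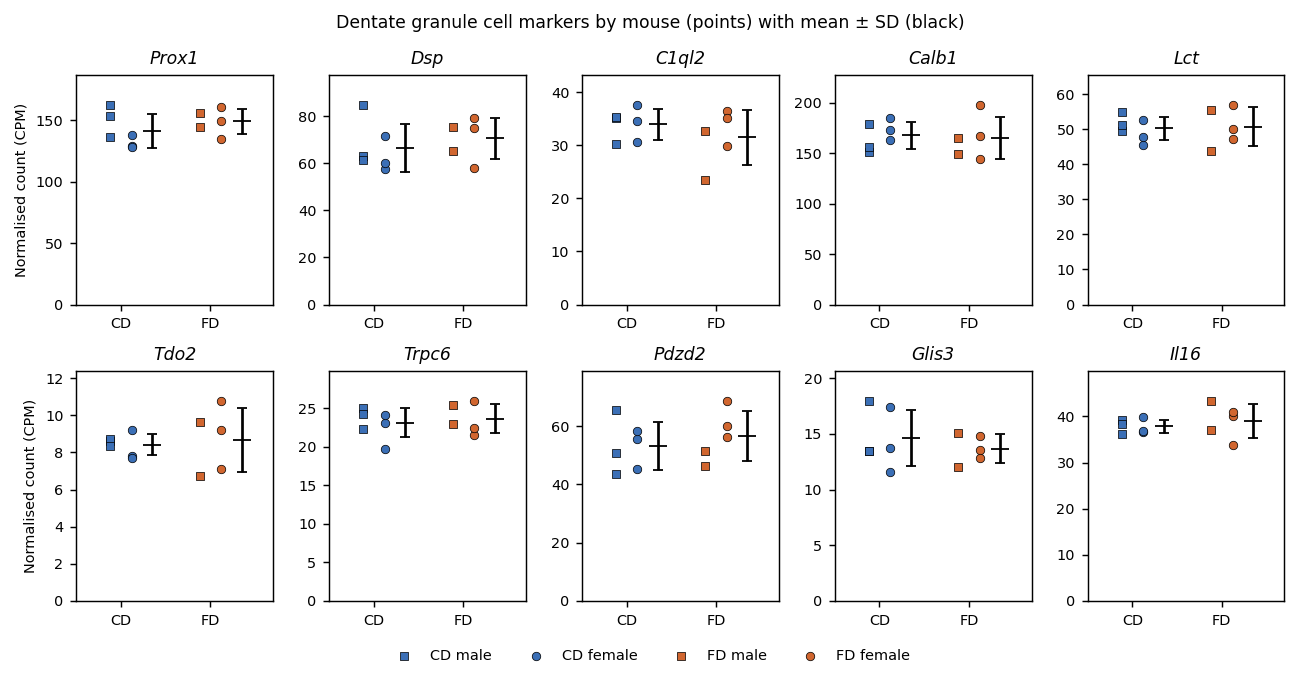
Normalised count (CPM, axes from 0) of each granule cell marker in each mouse, with males as squares, females as circles and the mean ± SD of each group in black. CD (n = 6) and FD (n = 5) overlap in all 10 panels, and the lowest FD value of C1ql2 (23.4 CPM) lies below the lowest CD value (30.3 CPM).

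Of the transcription factors, Prox1 was at 128.0 to 162.8 CPM in CD mice and their median was 137.0. For the FD mice Prox1 stood at 134.6 (female 1), 156.3 (male 1), 161.0 (female 2), 144.7 (male 2) and 149.5 CPM (female 3). All FD values fell inside the CD range, whose ends were CD female 3 and CD male 1. The log2 fold change was 0.08 ± 0.07 (SE), with a 95% interval of -0.06 to 0.22. Glis3, a Krüppel-like zinc finger factor, was at 11.6 to 18.0 CPM in CD mice with a median of 13.6. Its FD values were 13.5 (female 1), 15.1 (male 1), 14.8 (female 2), 12.02 (male 2) and 12.8 CPM (female 3), again all inside the CD range. CD male 2 and CD female 2 were the highest mice, and the log2 fold change was -0.08 ± 0.11 (95% interval -0.31 to 0.15).

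Dsp and Pdzd2 encode a desmosomal plaque protein and a protein with several PDZ domains. Dsp was at 57.5 to 84.9 CPM in CD mice with a median of 62.3, and CD male 1 stood above the other 5 CD mice, which did not exceed 71.8 CPM. In FD mice Dsp was at 57.95 (female 1), 75.2 (male 1), 75.1 (female 2), 65.3 (male 2) and 79.1 CPM (female 3). Thus 3 FD mice lay above all CD mice but CD male 1, and the groups overlapped. Its log2 fold change was 0.08 ± 0.10 (95% interval -0.13 to 0.29). Pdzd2 ranged from 43.6 to 65.5 CPM in CD mice (median 53.3). Its FD values were 56.2 (female 1), 46.2 (male 1), 68.7 (female 2), 51.5 (male 2) and 60.1 CPM (female 3), so that 1 FD mouse exceeded all CD mice. This gave a log2 fold change of 0.08 ± 0.11 (95% interval -0.14 to 0.31).

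C1ql2 and Il16 encode secreted proteins. C1ql2 is a C1q-like protein that mossy fibres release at their synapses on CA3 cells, and Il16 encodes a cytokine precursor. C1ql2 was at 30.3 to 37.7 CPM in CD mice and their median was 34.8. FD mice had C1ql2 at 36.4 (female 1), 32.7 (male 1), 29.8 (female 2), 23.4 (male 2) and 35.1 CPM (female 3). FD male 2 was the lowest of all mice, FD female 2 also lay below every CD mouse, and the other 3 FD mice were inside the CD range. The log2 fold change, the lowest of the 10, was -0.10 ± 0.10 (95% interval -0.30 to 0.10), and it was -0.01 without FD male 2. Il16 was at 36.2 to 39.8 CPM in CD mice with a median of 37.6. Its FD values were 33.9 (female 1), 43.4 (male 1), 40.05 (female 2), 37.0 (male 2) and 41.0 CPM (female 3), of which 3 exceeded all CD mice and 1 lay below all of them. Its log2 fold change was 0.04 ± 0.06 (95% interval -0.09 to 0.18).

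For calcium handling, Calb1 was at 151.2 to 185.2 CPM in CD mice (median 168.2). FD female 3 was the highest mouse with 198.4 CPM, FD female 1 (144.5) and FD male 2 (149.8) were below all CD mice, and FD male 1 (165.3) and FD female 2 (167.3) were inside the CD range. The log2 fold change of Calb1 was -0.03 ± 0.08 (95% interval -0.19 to 0.13). Trpc6, a diacylglycerol-gated cation channel, was at 19.8 to 25.0 CPM in CD mice (median 23.6). In FD mice Trpc6 was at 21.6 (female 1), 25.4 (male 1), 26.0 (female 2), 23.0 (male 2) and 22.4 CPM (female 3). The log2 fold change was 0.03 ± 0.07 (95% interval -0.13 to 0.18), and CD female 3 was the lowest of all mice.

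Lct encodes the brush-border enzyme lactase and Tdo2 encodes tryptophan 2,3-dioxygenase, both named for their work outside the brain. Lct was at 45.6 to 54.8 CPM in CD mice with a median of 50.4. In FD mice Lct was at 47.1 (female 1), 55.6 (male 1), 50.02 (female 2), 43.8 (male 2) and 57.0 CPM (female 3), so that FD mice were both the lowest and the highest of the 11. Its log2 fold change was 0.01 ± 0.07 (95% interval -0.14 to 0.16). Tdo2 was at 7.72 to 9.22 CPM in CD mice (median 8.47) and at 7.09 (female 1), 9.62 (male 1), 9.21 (female 2), 6.72 (male 2) and 10.8 CPM (female 3) in FD mice. The 5 FD mice spread over a wider range than the CD mice (SD of 1.72 CPM against 0.568 CPM), and the log2 fold change was 0.05 ± 0.11 (95% interval -0.19 to 0.29). The difference in spread was not tested.

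**Figure D3:**
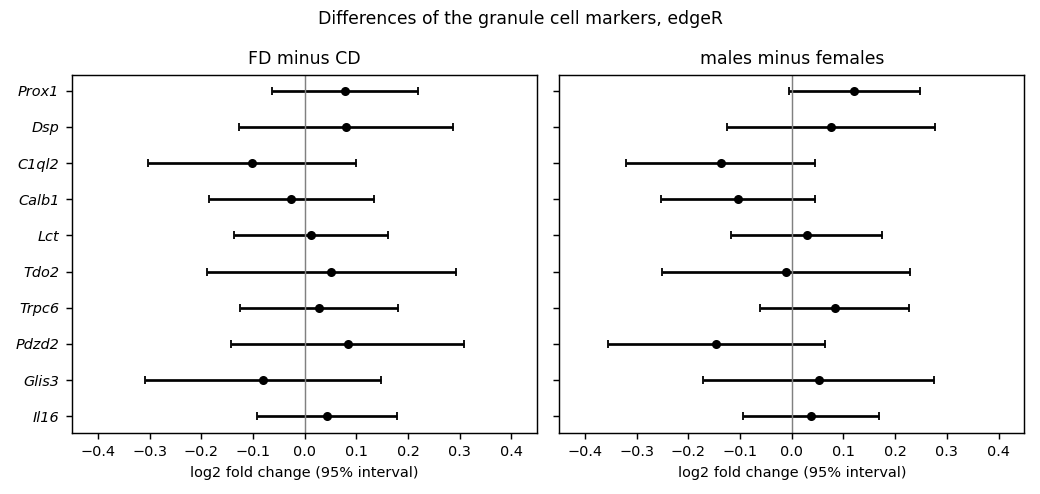
Log2 fold change of each granule cell marker with its 95% interval (edgeR, n = 11), FD minus CD on the left and males minus females on the right. Every interval crosses 0, and no interval between the diets reaches beyond -0.31 or 0.31.

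Single mice moved these small differences by more than 1.5 times, with no member called in any case. Without 1 mouse, the log2 fold change of Prox1 was between 0.05 (without CD female 3) and 0.12 (without FD female 1), and that of Dsp between 0.03 (without FD female 3) and 0.16 (without CD male 1). Pdzd2 ran from 0.01 (without FD female 2) to 0.15 (without CD male 1), and C1ql2 from -0.15 (without FD female 1) to -0.01 (without FD male 2). Glis3 ran from -0.14 (without CD female 1) to -0.004 (without CD male 2), and Il16 from 0.002 (without FD male 1) to 0.10 (without FD female 1). For Calb1, Lct, Tdo2 and Trpc6 the sign changed when 1 mouse was left out.

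The share of reads outside genes was split between the diets, with 3 CD and 2 FD mice among the 5 libraries of low share (7.01% to 8.95%) and 3 CD and 3 FD mice among the other 6 (9.53% to 11.03%). Within the low class, the difference between FD and CD changed sign for 5 members, Dsp (log2 fold change -0.08), C1ql2 (0.07), Pdzd2 (-0.04), Glis3 (0.04) and Il16 (-0.05). The only male of the low class was CD male 1, the mouse with the highest Dsp (84.9 CPM). Sex was thus not balanced between the diets in that class. In the high class Dsp had a log2 fold change of 0.25 (edgeR unadjusted p = 0.000736, adjusted p = 0.335), Pdzd2 of 0.25 (adjusted p = 0.612) and C1ql2 of -0.23 (adjusted p = 0.610), and no member was called in either class. With the share as a covariate in the fit of all 11 mice, the log2 fold changes between diets were 0.06 for Prox1, 0.09 for Dsp, -0.08 for C1ql2, 0.003 for Calb1, 0.004 for Trpc6, 0.11 for Pdzd2 and -0.11 for Glis3, and 0 members were called (edgeR).

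Across the 11 mice, 3 members had a Pearson's r with this share of at least 0.5. These were Glis3 (r = 0.604, rho = 0.618, permutation p = 0.0503 and 0.0484, adjusted p = 0.224 and 0.175 over the 10 members), Trpc6 (r = 0.585, rho = 0.727, permutation p = 0.0598 and 0.0146, adjusted p = 0.224 and 0.146) and Prox1 (r = 0.530, rho = 0.573, permutation p = 0.0921 and 0.0700, adjusted p = 0.230 and 0.175). Without the 2 mice farthest from the median share, r was 0.198 for Glis3, 0.729 for Trpc6 and 0.307 for Prox1. Calb1 (r = -0.572, rho = -0.427, permutation p = 0.0671 and 0.192, adjusted p = 0.224 and 0.385) and C1ql2 (r = -0.495, rho = -0.573, permutation p = 0.120 and 0.0693, adjusted p = 0.239 and 0.175) had the lowest values, which became -0.380 and -0.581 without those mice. No member's correlation with the share passed an adjusted p of 0.1.

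Between the sexes, 0 of 10 members were called either (edgeR with diet as covariate, adjusted p of 0.1), while 1257 genes were called, 6.11% of those tested. Also here 0 members had an unadjusted p under 0.05, against 20.3% of all genes, and DESeq2 called 0 members. Prox1 came closest, with 150.7 ± 10.3 CPM in males (SD, n = 5) and 140.0 ± 12.9 CPM in females (SD, n = 6), a log2 fold change of 0.12 ± 0.06 and an adjusted p of 0.274 (edgeR). Without FD female 2, the female with the highest Prox1, that value became 0.16 with an adjusted p of 0.0845 (edgeR), the single call of a member in any fit that was run. C1ql2, Calb1 and Pdzd2 had log2 values of -0.14, -0.10 and -0.15, lower in males, and the 95% intervals of all 3 crossed 0. With the share of reads outside genes as a covariate these values were -0.06, -0.01 and -0.10. Without 1 mouse, C1ql2 ran from -0.19 (without FD male 1) to -0.04 (without FD male 2), Calb1 from -0.14 (without CD male 1) to -0.05 (without FD female 3) and Pdzd2 from -0.25 (without CD male 1) to -0.08 (without FD male 1). Prox1 was 0.08 both with that covariate and without CD male 1. For the interaction of diet and sex, 0 members and 0 of the 20589 genes (0%) were called by edgeR, with 1.90% of genes and 0 members at an unadjusted p under 0.05. The largest interaction term among the members was that of Pdzd2, with a log2 value of -0.33 ± 0.19 and an adjusted p of 1 (edgeR). In females alone Pdzd2 was higher in FD by 0.21 on the log2 scale, and in males alone it was lower (-0.11).

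Together the 10 members took between 5.55 and 6.59 of every 10000 counted reads. In CD mice this share was 5.94 ± 0.298 per 10000 (SD, n = 6) and in FD mice 6.11 ± 0.470 per 10000 (SD, n = 5). To weight the genes equally, a granule score was formed by centring each member's log2 CPM on its average over all mice and averaging the members. The scores of CD mice were 0.07 (male 1), 0.005 (female 1), 0.04 (male 2), -0.03 (female 2), -0.05 (male 3) and -0.07 (female 3). FD mice had scores of -0.10 (female 1), 0.08 (male 1), 0.09 (female 2), -0.16 (male 2) and 0.12 (female 3). The lowest and the highest mouse were both FD mice, and they differed 1.21-fold. The mean score was -0.006 ± 0.054 in CD and 0.007 ± 0.127 in FD mice, a difference of 0.01 that was far smaller than the spread between mice. It was 0.07 in females alone and -0.06 in males alone, and it was 0.05 without FD male 2 and -0.02 without FD female 3.

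A share of the dissected tissue is better read against the pyramidal fields, whose markers come from the same block of tissue. Relative to the mean of the CA1 and CA3 scores, the granule score ran from -0.22 (CD female 3) to 0.17 (FD female 2), and the difference between FD and CD was 0.06, within the pooled SD of 0.117 between mice. It was 0.13 in females alone and 0.0006 in males alone. FD male 2, the mouse with the lowest granule score, also had the lowest CA1 (-0.20) and CA3 (-0.14) scores, so that its relative value was 0.01. The same library had the highest score of the 4 meningeal markers (Col1a1, Col1a2, Slc6a13 and Ogn), at 1.24 and a summed level of 82.7 CPM, against 17.4 to 42.3 CPM in CD mice. FD female 3, with the highest granule score, had the highest CA3 score (0.21), and its 4 striatal markers (Drd1, Adora2a, Rgs9 and Ppp1r1b) summed to 75.8 CPM, above the 44.9 to 56.7 CPM of CD mice. CD female 3 had the lowest relative value and the second-highest CA3 score (0.20). It also had the highest sum of 7 choroid plexus markers (89.7 CPM, against 31.0 to 62.9 CPM in the other mice). Of these markers Kl varied little, at 23.8 ± 0.769 CPM in CD and 23.2 ± 1.41 CPM in FD mice (SD). The thalamic markers (Tcf7l2, Prkcd, Zic1 and Lef1) had their highest sums in the 2 mice with the lowest granule scores. These were 59.0 CPM in FD male 2 and 58.6 CPM in FD female 1, against 39.2 to 52.9 CPM in CD mice. FD female 3, with the highest granule score, also lay just above the CD mice at 53.0 CPM. Prkcd was the highest of the 4 (31.4 CPM in CD and 34.4 CPM in FD mice). Shox2, also listed, was not tested. Over the 11 mice the thalamic score had r = -0.497 and rho = -0.391 with the granule score (r = -0.425 without the 2 farthest mice). The meningeal (-0.464), endothelial (-0.463) and neocortical (-0.411) scores had similar r, but the meningeal r was 0.055 without the 2 farthest mice. Other lists had positive values, such as immature granule cells and progenitors (0.465), CA3 (0.448) and striatum (0.410). For CA1 r was -0.141 over all 11 mice. Without the 2 farthest mice, r was lower than for thalamus in several lists. These were neocortex (-0.748), CA1 (-0.711), interneurons (-0.670), striatum (-0.662), mossy cells (-0.574) and oligodendrocytes (-0.561). For CA3 it was then -0.061. FD female 1 also had the highest sums of the 4 neocortical markers (127.3 CPM, against 105.5 to 122.9 CPM in CD mice) and of the 3 endothelial markers (123.1 CPM, against 81.0 to 121.0 CPM in CD mice). The part of these neighbouring tissues in the granule score was not tested.

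**Figure D4:**
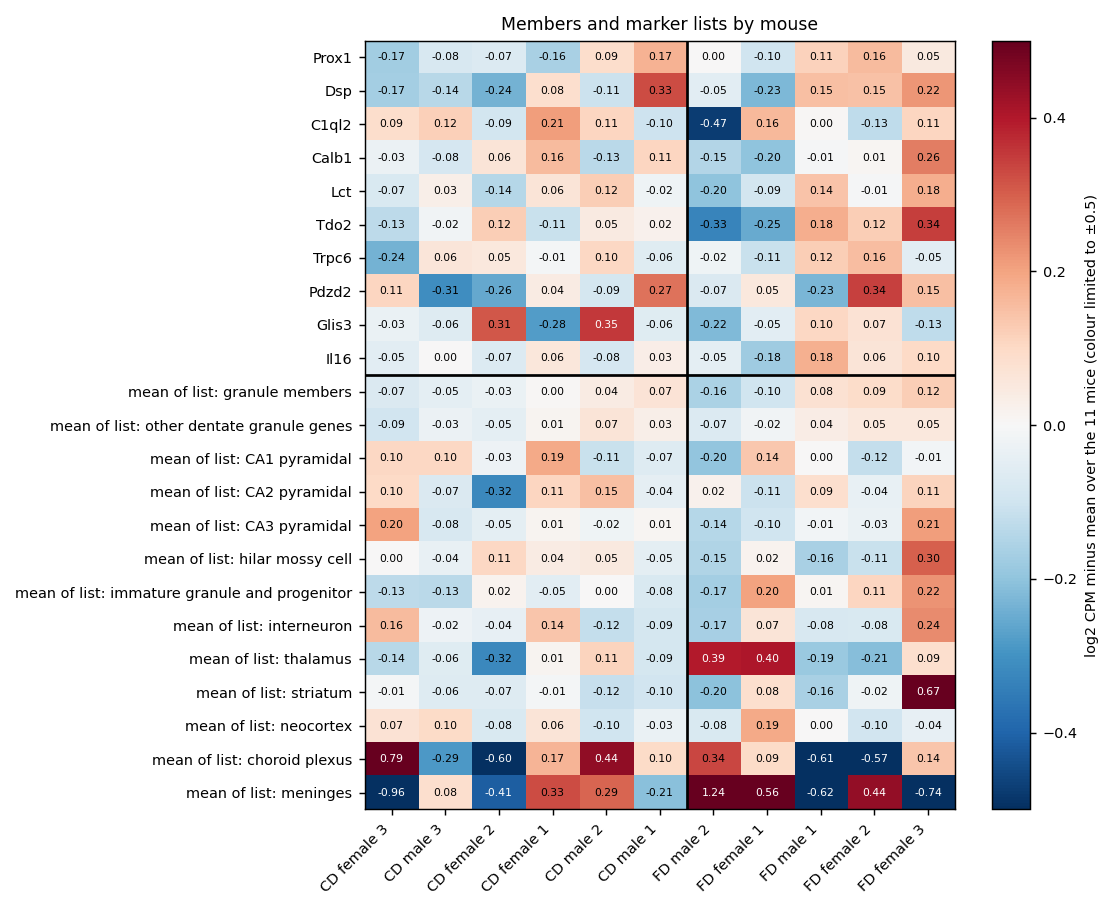
Log2 CPM minus the mean over the 11 mice for the 10 members (upper rows) and the mean of this value over the genes of 13 marker lists (lower rows), with colour limited to ±0.5 and mice ordered by granule score within CD (left) and FD (right). The granule score runs from -0.16 (FD male 2) to 0.12 (FD female 3), while the striatal score reaches 0.67 in FD female 3 and the meningeal score 1.24 in FD male 2.

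Single members varied by 6.91% (Il16) to 14.9% (Pdzd2) between mice, expressed as the coefficient of variation of CPM over all 11. For the 14437 genes that averaged 1 CPM or more the median was 9.16%, so the members were spread to both sides of it. Counting error alone would give 1.76% for Calb1 and 7.78% for Tdo2, whose total coefficient was 13.7%. The ratio of the highest to the lowest mouse was 1.27 for Prox1 and 1.61 for C1ql2.

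Markers of a common cell type vary together when that type takes a different share of each tissue piece, and this was examined over the 11 mice. The comparison of all pairs of members was chosen after seeing the data, and the cause of any joint variation was not tested. Of the 45 pairs of members, 34 (75.6%) had a positive Pearson's r of log2 CPM, with a median of 0.329. Over the 104206266 pairs of genes with at least 1 CPM, 50.7% were positive and the median was 0.009. The highest value was between Dsp and Il16 (r = 0.780, rho = 0.809, permutation p = 0.00436 and 0.00379, adjusted p = 0.196 for r over 45 pairs), and it was 0.864 without the 2 mice farthest from the median of Dsp. Lct and Tdo2 followed with r = 0.699 (rho = 0.636, permutation p = 0.017 and 0.0405, adjusted p = 0.208), which fell to 0.355 without the 2 farthest mice. In all, 9 pairs had a permutation p under 0.05 and 0 passed an adjusted p of 0.1.

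**Figure D5:**
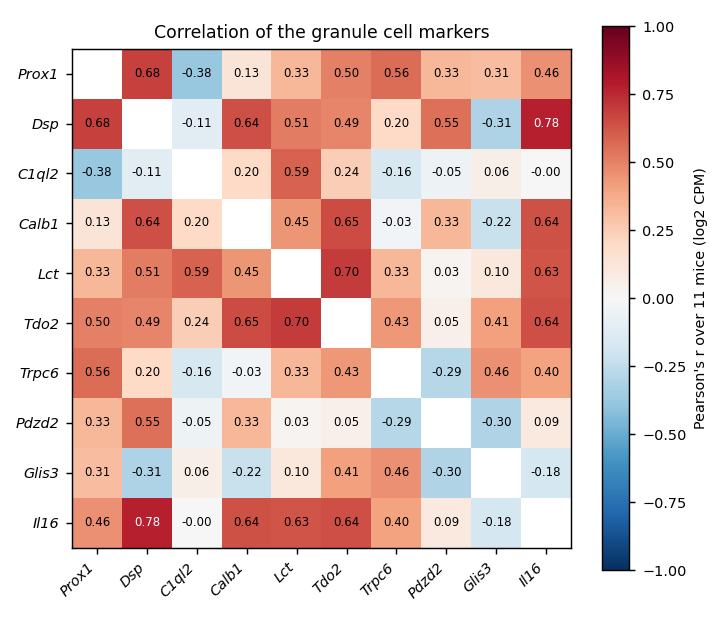
Pearson's r between the log2 CPM of each pair of granule cell markers over the 11 mice, red for positive and blue for negative values. Dsp, Calb1, Lct, Tdo2 and Il16, picked after seeing the values, form a block of positive values between 0.45 and 0.78, while C1ql2, Pdzd2 and Glis3 hold most of the negative ones. Without the 2 mice farthest from the median of the first gene of a pair, values in the block ran from 0.101 (Calb1 and Lct) to 0.864 (Dsp and Il16).

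Prox1 was compared with the other 9 members and with 4 pyramidal markers, 13 relations in all. Its highest correlation was with Dsp (r = 0.683, rho = 0.691, permutation p = 0.0247 and 0.0232, adjusted p = 0.321 and 0.180), and r was 0.525 without CD male 1 and CD female 3, the mice farthest from the median of Prox1. On deviations from the means of each diet and sex r was 0.655 (adjusted p = 0.176), and without CD female 1 it was 0.831 (adjusted p = 0.0689), the only setting in which it passed 0.1. C1ql2 had the lowest value among the members (r = -0.381, rho = -0.600, permutation p = 0.256 and 0.0564, adjusted p = 0.410 and 0.244, r = -0.320 without the 2 farthest mice). With Wfs1, a CA1 marker, Prox1 had r = -0.565 and rho = -0.673 (permutation p = 0.0699 and 0.0278, adjusted p = 0.324 and 0.180, r = -0.522 without the 2 farthest mice). Fibcd1, also a CA1 marker, had r = -0.444 with Prox1 (rho = -0.345, adjusted p = 0.379 and 0.475), which was -0.505 without the 2 farthest mice and -0.046 on deviations from diet and sex means. Iyd and Grik4, the CA3 markers among the 13 relations, had positive values, and the CA3 markers Bok, Homer3 and Cpne4 were not compared with Prox1. For Iyd r was 0.359 (rho = 0.282, adjusted p = 0.410 and 0.475), and 0.711 without the 2 farthest mice (adjusted p = 0.357). For Grik4 r was 0.104 (rho = 0.118, adjusted p = 0.760 and 0.734), and 0.176 without the 2 farthest mice. None of the 13 relations passed an adjusted p of 0.1.

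Each member was also set against the mean of the other 9, as a description over the same 11 mice. Tdo2 followed the others most closely (r = 0.810), before Lct (0.729), Il16 (0.646), Dsp (0.618), Prox1 (0.561) and Calb1 (0.558). Trpc6 (0.316), Pdzd2 (0.137), C1ql2 (0.071) and Glis3 (0.027) followed the mean of the others little or not at all.

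A second list of 12 dentate granule genes, not used for the score, was Dock10, Stxbp6, Rfx3, Tiam1, Sema5a, Plk5, Smad3, Akap7, Cyp7b1, Ntf3, C1ql3 and Igfbp5. Its score had r = 0.853 and rho = 0.827 with that of the 10 members over the 11 mice, and r = 0.816 without the 2 mice farthest from the median, and both lists come from the same libraries. Stxbp6 (r = 0.710), Dock10 (0.642), Tiam1 (0.635) and Rfx3 (0.622), the last a ciliary transcription factor, each followed the score more closely than at least 98.6% of the 14427 other genes with 1 CPM. Igfbp5 (-0.078), an insulin-like growth factor binding protein, and Ntf3 (0.125), the neurotrophin NT-3, did not follow it. By diet, 10 of these 12 genes had a higher value in FD, against 48.2% of all genes tested. Their signs are not independent, as all come from the same mice. Of the 12, 0 were called and 0 had an unadjusted p under 0.05 (edgeR), with a median log2 fold change of 0.03. Smad3, a mediator of TGF-beta signals, had the smallest p, with 89.7 ± 5.51 CPM in CD and 95.5 ± 2.32 CPM in FD mice (log2 fold change 0.09 ± 0.05, adjusted p = 0.99996, edgeR).

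The targets and precursors of granule cells were read from lists as well. Of 8 genes of immature granule cells and their progenitors, 6 had a higher value in FD, against 48.2% of all genes tested, and 0 were called. Eomes, the Tbr2 factor of intermediate progenitors, had the smallest p, at 0.304 ± 0.106 CPM in CD and 0.533 ± 0.289 CPM in FD mice (log2 fold change 0.81 ± 0.35, unadjusted p = 0.0341, adjusted p = 0.99996, edgeR). This level rests on few reads, as 3 counts correspond to 0.07 to 0.26 CPM in these libraries. Between the sexes Eomes was lower in males by value (log2 fold change -0.72 ± 0.34, adjusted p = 0.240, edgeR with diet as covariate). Dcx, which marks migrating young neurons, was at 24.6 ± 3.03 CPM in CD and 26.9 ± 2.45 CPM in FD mice (log2 fold change 0.13 ± 0.09). Of 3 markers of hilar mossy cells, 2 were higher and 1, Calb2, was lower in FD (log2 fold change -0.12 ± 0.11), and 0 were called. The 4 CA1 markers were all lower in FD by value, with a median log2 fold change of -0.04 and 0 calls, and Pou3f1 had the smallest p (-0.15 ± 0.08, adjusted p = 0.99996, edgeR). Of the 5 CA3 markers 4 were lower in FD and 0 were called. No gene was called between the diets by edgeR in any of the 18 marker lists, which also covered interneurons, glia, blood vessels, blood, meninges, choroid plexus and neighbouring brain regions.

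Over all 14427 genes that are no members and had at least 1 CPM, the 10 whose log2 CPM followed the granule score most closely were Ap3b1 (r = 0.847), Pcyt1b (0.841), Cenpl (0.836), Ptpro (0.832), Syt6 (0.808), Vps16 (0.804), Rbfox1 (0.801), Tmem230 (0.801), Rgs9 (0.800) and Gspt2 (0.798). Ap3b1 encodes a subunit of the AP-3 adaptor of vesicle transport, and Rbfox1 a neuronal splicing factor, which at 445.8 ± 20.1 CPM had the highest level of the 10. The 5 genes that ran most opposite to the score were Tinagl1 (r = -0.893), Ppp1r13l (-0.854), Klf4 (-0.849), Gata2 (-0.847) and Sorcs1 (-0.829). Klf4 and Gata2 encode transcription factors that endothelial cells express. With 14427 genes ranked over 11 mice, high values of either sign occur without any relation, and these genes are given as a ranking only.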

How the data were processed

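Raw read counts per gene for 11 mice were used as deposited. These are the authors' counts of uniquely aligned reads, made with STAR on the mm10 (GRCm38) genome after trimming. The methods and labels name featureCounts, while the 5 summary lines of each file look like those of HTSeq. Annotation release and strand setting are not given in the sources used here. The labels gave each mouse its group, sex and number.

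Genes with at least 10 counts in all were tested with edgeR 4.0.16 in R 4.3.3 (TMM, quasi-likelihood test, no covariate for diet, Benjamini-Hochberg adjustment, threshold of 0.1 as in the study). Log2 CPM used a prior count of 2, and correlations 100000 two-sided permutations. DESeq2 1.42.0 was an alternative. Symbols, positions and exon lengths came from GENCODE and promoters from RefSeq. The edgeR test between diets was tried on simulated counts, with seeded changes larger than those of the members between diets.

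The members and gene lists were chosen with earlier results of these data known. Named genes were all members, up to 3 genes with the smallest p between the diets in a list, and the 10 genes most like and 5 least like the granule score. Any pair of libraries of one group differed by more than sampling noise (chi-square per degree of freedom of at least 4.13). CD and FD mice of the same sex and number deviated together from their group means (r of 0.307 to 0.533 over 5 pairs), which by the rule set for this work pairs them. With sex means also removed, r was -0.004 to 0.387. Some genes of the marker lists are not reported here and were left out of the list sums and scores.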

Additional observations from a re-analysis of the deposited data

How the results depend on the processing

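No alternative called a member between FD and CD, and the adjusted p of the members stayed between 0.335 and 0.99999 (edgeR and DESeq2). The count of all genes called was 14 and is not stable. It was 8 with filterByExpr, 1 in females and 2 in males alone, 23 with the replicate block on the 5 pairs (CD male 3 left out) against 4 in the same pairs without it, 22 with the share of reads outside genes as a covariate, 1 in the low and 3 in the high class of that share, and 3 to 12 without 1 mouse, with 3 left after dropping FD female 1 or FD female 3. The block changed no other call. Fits on the share of reads outside genes and on the pairs without the block were chosen after seeing the data. So were the correlations of the members with that share and those over all pairs of members.

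Signs of small member differences changed, all of them without a call. The log2 fold change between diets became -0.083 for Dsp, 0.066 for C1ql2, -0.043 for Pdzd2, 0.036 for Glis3 and -0.049 for Il16 in the low class, 0.015 for Calb1, -0.013 for Lct and -0.0089 for Tdo2 in the high class, 0.0031 for Calb1 with the share as covariate, and -0.033 for Lct, -0.025 for Tdo2 and -0.11 for Pdzd2 in males alone. Without 1 mouse it ran from -0.10 to 0.029 for Calb1, -0.034 to 0.063 for Lct, -0.044 to 0.14 for Tdo2 and -0.011 to 0.072 for Trpc6. By sex, Glis3 became -0.20 with the share as covariate, and without 1 mouse values ran from -0.015 to 0.13 for Dsp, -0.014 to 0.099 for Lct, -0.073 to 0.084 for Tdo2, -0.031 to 0.13 for Glis3 and -0.012 to 0.070 for Il16, with 0 to 1 members called. The correlation of Prox1 with Calb1 became -0.0086 without the 2 farthest mice and ran from -0.00043 to 0.34 without 1 mouse, and that with Grik4 from -0.032 to 0.29. The cause of these changes was not tested.

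The 95% intervals of the members between diets reach up to 0.31 on the log2 scale. The granule score difference was between -0.060 and 0.072 over its alternatives, and the score relative to CA1 and CA3 between 0.00055 and 0.13.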
